A study of Mus musculus with 6 samples.

Results

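The genes described here are a set of 40 G2/M and mitosis genes, chosen by name: the kinase CDK1 with its cyclins and phosphatases, the mitotic kinases, the spindle checkpoint, the kinetochore, the spindle and cytokinesis. A gene counted as measured where the array's annotation gave at least 1 transcript cluster (the array's unit of probes for a gene) that symbol and no other. This held for 39 of the 40, out of 16583 genes measured in all, and each of the 39 had 1 cluster. The missing one was Ccnb1, the gene of cyclin B1, for which only promoter sequence and no expression value is given here. RNA came from Neuro2a cells, a mouse neuroblastoma line, in 6 samples, each hybridised to 1 Affymetrix Mouse Gene 1.0 ST array. In 3 samples the cells carried an empty vector (labelled Control), and in 3 they carried expression vectors for microRNA-type RNA interference against USF1 and USF2 (labelled USFKD). Both groups are transiently transfected cultures of 1 line, introduced by Lipofectamine with a vector system that carries EmGFP, and no source used here gives the share of cells that took up a vector or the time after transfection. Replicates are called biological in the labels, with no word on separate cultures. The p-values therefore cover only how these samples differed, and that spread may be technical.

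Cells enter mitosis when CDK1, bound to cyclin B, is switched on by CDC25 phosphatases. Aurora and Polo-like kinases then build the spindle, the spindle checkpoint holds back the anaphase-promoting complex until every kinetochore is attached, and motor and scaffold proteins cut the cell apart. Many of these genes are transcribed in 1 wave late in the cycle, through CCAAT boxes bound by NF-Y and through a cell cycle element read by the DREAM and FOXM1 complexes. USF1 and USF2 bind E-boxes, best the palindrome CACGTG, and have been described at the promoters of Cdk1 and Ccnb1, which is why these genes were compared between knockdown and control.

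Promoter sequence is shown because the comparison rests on that binding. Of the 40 genes, 33 had a promoter window in RefSeq (build GRCm38.p6), 300 bases long from 250 before to 50 after the transcription start. The windows were searched on both strands for the E-box CACGTG, for the looser E-box CANNTG, which includes CACGTG, for CCAAT, and for 2 forms of the cell cycle element, TTTGAA and TTCGAA. The E-box CACGTG was in the window of 3 of 33 genes (9.09%), beside 8.09% of all 27025 genes with a window. CANNTG was in 20 of 33 (60.6%), beside 75.0% of all genes. CCAAT was in 26 of 33 (78.8%) beside 41.1%, TTTGAA in 24 (72.7%) beside 20.2%, and TTCGAA in 4 (12.1%) beside 1.80%. In these windows the CCAAT and TTTGAA letters were thus more frequent than in promoters at large, and the CACGTG letters about as frequent. A match is a stretch of letters and not a measured binding site. The 250 bases before the start are printed 5′ to 3′ for the 2 genes described as USF targets, for Birc5, the measured gene with the smallest p, and for Ttk, Espl1 and Anln, the 3 genes with CACGTG. Capitals mark the palindromic E-box, the CCAAT box on either strand (ATTGG where it lies on the other one) and both forms of the cell cycle element.
Cdk1 (chr10:69352913-69353162, minus strand): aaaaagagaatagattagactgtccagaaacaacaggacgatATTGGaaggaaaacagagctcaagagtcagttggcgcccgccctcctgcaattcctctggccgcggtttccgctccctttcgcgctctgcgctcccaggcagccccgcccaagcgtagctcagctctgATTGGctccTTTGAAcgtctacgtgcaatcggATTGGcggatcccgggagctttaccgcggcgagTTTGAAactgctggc
Ccnb1 (chr13:100786487-100786736, minus strand): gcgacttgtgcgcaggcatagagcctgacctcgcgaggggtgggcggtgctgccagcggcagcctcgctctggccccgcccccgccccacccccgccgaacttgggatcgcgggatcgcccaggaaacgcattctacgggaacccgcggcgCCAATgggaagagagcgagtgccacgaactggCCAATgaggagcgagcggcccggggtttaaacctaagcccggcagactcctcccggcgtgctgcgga
Birc5 (chr11:117848987-117849236, plus strand): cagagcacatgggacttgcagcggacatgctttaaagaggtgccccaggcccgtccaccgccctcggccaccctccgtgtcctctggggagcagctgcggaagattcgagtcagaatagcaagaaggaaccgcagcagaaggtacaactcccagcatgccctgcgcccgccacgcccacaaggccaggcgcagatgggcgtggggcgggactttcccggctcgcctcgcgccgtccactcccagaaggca
Ttk (chr9:83834439-83834688, plus strand): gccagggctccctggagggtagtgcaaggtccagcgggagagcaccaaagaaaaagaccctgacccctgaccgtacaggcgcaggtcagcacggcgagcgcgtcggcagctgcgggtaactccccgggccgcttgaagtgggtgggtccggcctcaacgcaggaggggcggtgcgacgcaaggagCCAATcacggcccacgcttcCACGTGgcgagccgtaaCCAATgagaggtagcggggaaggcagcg
Espl1 (chr15:102296043-102296292, plus strand): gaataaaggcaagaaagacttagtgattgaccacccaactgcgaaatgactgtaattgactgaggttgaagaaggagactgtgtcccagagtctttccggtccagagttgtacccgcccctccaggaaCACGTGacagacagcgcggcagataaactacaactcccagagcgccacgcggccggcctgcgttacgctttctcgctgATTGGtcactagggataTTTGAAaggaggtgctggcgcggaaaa
Anln (chr9:22389207-22389456, minus strand): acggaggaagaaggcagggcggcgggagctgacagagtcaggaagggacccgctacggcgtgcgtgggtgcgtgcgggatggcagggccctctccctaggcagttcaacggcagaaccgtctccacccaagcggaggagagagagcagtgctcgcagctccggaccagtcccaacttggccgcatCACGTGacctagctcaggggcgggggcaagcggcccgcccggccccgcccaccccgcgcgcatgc
The stretch before Cdk1 holds 3 CCAAT boxes and 2 TTTGAA elements, the nearest TTTGAA from 15 to 10 bases before the start. Before Ccnb1 there are 2 CCAAT boxes, from 99 to 95 and from 67 to 63 bases before the start. Neither stretch holds CACGTG, and CANNTG occurs 1 time before Cdk1 and 0 times before Ccnb1. The stretch before Birc5 holds none of the marked letters, but the looser CANNTG, which is not marked, occurs 3 times in it. CANNTG, counting CACGTG, occurs 2 times before Ttk, 2 times before Espl1 and 1 time before Anln. The CACGTG lies 45 to 40 bases before the start of Ttk, 122 to 117 before Espl1 and 65 to 60 before Anln.

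The deposited values are log2 signals relative to each cluster's own median over the 6 arrays, so they compare arrays for 1 gene at a time and hold no level. The rounding of the numbers places a cluster in a brighter class (signals of 8 to 16 before centring) or a dimmer one (4 to 8). All 39 measured mitotic genes were in the brighter class, which held 7320 of the 16583 genes (44.1%). The standard deviation over all clusters was 0.0531 to 0.0780 on 5 arrays and 0.159 on knockdown array 2, where the median of the brighter genes lay 0.0367 below their empty vector mean and that of the other genes 0.0835 above it. The targets check the labels, and Usf2 was in the brighter class while Usf1 was not. Usf1 was at 0.18, 0.32 and 0.43 with empty vector and -0.28, -0.18 and -0.26 with knockdown, and Usf2 at 0.12, 0.28 and 0.27 against -0.22, -0.13 and -0.12. Neither target overlapped between the groups, with changes of -0.55 ± 0.07 and -0.38 ± 0.06 (SE, n = 3 per group), limma adjusted p of 0.320 and 0.348, and an exact two-sided permutation p of 0.10 each, the smallest that 3 against 3 arrays can give.

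No mitotic gene passed the test after knockdown. Changes (knockdown minus empty vector, log2 scale) ran from -0.12 for Birc5 and Kif4 to 0.043 for Spc25, with standard errors of 0.0391 to 0.11. In limma 0 of 39 had an adjusted p under 0.05 (the adjusted p were 0.996 to 0.999), beside 0.00603% of all genes. At an unadjusted p under 0.05 there was 1, Birc5, which lay lower (2.56% of the 39, beside 2.65% of all genes and 3.52% of the brighter class), and 0 lay higher, beside 1.60% of all genes and 1.46% of the brighter class. In both directions together 4.25% of all genes were under this p. Every knockdown array lay below every empty vector array for 4 genes, Cdk1, Foxm1, Birc5 and Ndc80. That is 10.3%, beside 5.95% of all genes and 8.61% of the brighter class. The knockdown arrays lay above for 0 genes, beside 4.33% and 5.46%. In bulk RNA, fewer cells in G2 or mitosis and less of these transcripts per cell cannot be told apart.

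The direction of the small differences leaned downward, and the lean was smaller without knockdown array 2. The change was below 0 for 30 of 39 genes (76.9%), beside 59.3% of the brighter class and 50.4% of all genes. The median change was -0.035 (0.976-fold), beside -0.011 in the brighter class and -7e-04 over all genes. Without knockdown array 2 the change was below 0 for 21 of 39 genes (53.8%), beside 48.0% of the brighter class, and the median was -0.010, beside 0.0024. Leaving out that array turned the sign of the change for 9 of the 39 genes, and for 26 of them it turned the sign or moved the change by over 1.5 times. The size of the intervals says how large a change these arrays leave room for. The 95% interval (limma, not adjusted) held 0 for 38 of the 39 genes, all except Birc5, and over all 39 the bounds ran from 0.799-fold (Hmmr, -0.32) to 1.13-fold (Hmmr, 0.18). In 0 of 39 did it reach down to the change measured for Usf2, the lesser of the 2 target changes. The interval of Usf2 itself ran from -0.51 to -0.24. The lower bounds of Hmmr (-0.32), Kif4 (-0.29), Ttk (-0.27) and Mki67 (-0.25) lay within it. For 29 of 39 genes the 3 empty vector arrays differed among themselves by more than the change between the groups.

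**Figure D1:**
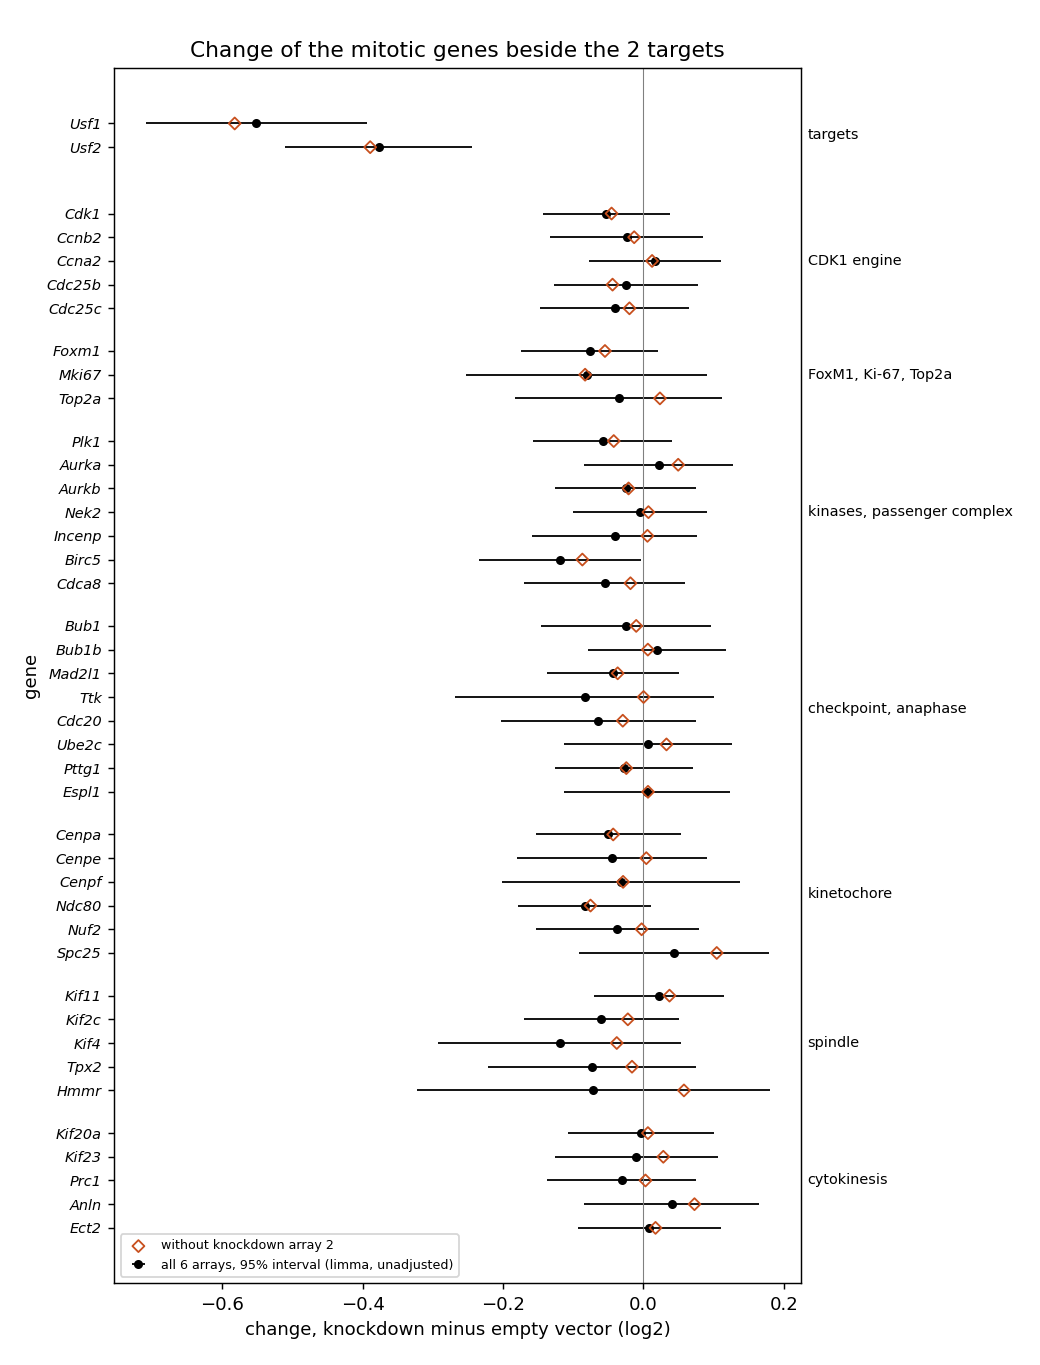
Change of Usf1, Usf2 and the 39 measured mitotic genes by role, given as knockdown minus empty vector (log2). Black points with bars are limma estimates with 95% intervals from 3 arrays per group, and open diamonds are the change without knockdown array 2. The bars of 38 mitotic genes cross 0, and the points of both targets (-0.55 and -0.38) lie left of the lowest bar end of a mitotic gene (-0.32).

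Among the genes of the CDK1 engine, Cdk1 itself had the smallest standard error and groups that did not overlap. It was at 0.010, 0.033 and 0.024 on empty vector arrays 1, 2 and 3 and at -0.010, -0.045 and -0.035 on knockdown arrays 1, 2 and 3. The nearest arrays of the groups lay close, at 0.010 and -0.010. The change was -0.053 ± 0.039 (SE, limma adjusted p = 0.996), or 0.964-fold with an interval of 0.905 to 1.03. The exact two-sided permutation p was 0.10, again the smallest possible, and without knockdown array 2 the change was -0.045. Ccnb2, the second B-type cyclin, had a change of -0.024 ± 0.047 (SE), with empty vector array 1 at -0.057, below every knockdown array. Ccna2, the cyclin of S phase and G2, was at 0.017 ± 0.041. The phosphatases that activate CDK1 were at -0.024 ± 0.044 (Cdc25b) and -0.041 ± 0.046 (Cdc25c). All except Cdk1 overlapped between the groups.

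The transcription factor gene Foxm1, Mki67 and Top2a report on proliferation more broadly. Foxm1, whose product drives the G2/M wave, was at 0.032, 0.015 and 0.055 with empty vector and at -0.015, -0.086 and -0.027 with knockdown. The groups did not overlap, with a change of -0.076 ± 0.042 (SE, limma adjusted p = 0.996), which was -0.055 without knockdown array 2. Mki67, which encodes the proliferation antigen Ki-67, was at 0.22, -0.085 and 0.10 with empty vector but between -0.0057 and 0.0025 on all 3 knockdown arrays. Its change of -0.081 ± 0.074 (SE) therefore sits inside the spread of the empty vector arrays alone. Top2a, the topoisomerase that untangles sister chromatids, was at -0.035 ± 0.064, and at 0.024 without knockdown array 2, which read -0.14. Clusters that share the Top2a symbol with another gene were left out.

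The mitotic kinases and the chromosomal passenger complex gave the single gene at an unadjusted p under 0.05. Birc5, which encodes survivin, the passenger subunit that docks the complex on chromosomes, was at 0.0034, 0.061 and 0.082 with empty vector and at -0.0034, -0.14 and -0.073 with knockdown. Knockdown arrays 2 and 3 were clearly low, while knockdown array 1 lay just under empty vector array 1. The change was -0.12 ± 0.05 (SE), 0.921-fold (0.850 to 0.997), with an unadjusted p of 0.0443 and an adjusted p of 0.996 in limma, and -0.087 without knockdown array 2. Its partners in the complex had changes of -0.025 ± 0.043 (the kinase Aurkb), -0.041 ± 0.051 (the scaffold Incenp) and -0.055 ± 0.050 (Cdca8, borealin). Incenp and Cdca8 were lowest on knockdown array 2, at -0.14 and -0.11, and within 0.0045 of 0 on the other knockdown arrays. Plk1, the Polo-like kinase of mitotic entry, was at -0.0039, 0.053 and 0.064 with empty vector and at 0.0039, -0.052 and -0.013 with knockdown. Knockdown array 1 lay above empty vector array 1 for Plk1, and the change was -0.058 ± 0.043 (SE). Aurka, the kinase of spindle poles, and Nek2, a kinase that separates centrosomes, were at 0.022 ± 0.046 and -0.0046 ± 0.0412.

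Of the 8 genes of the spindle checkpoint and of anaphase, 5 had a change below 0 (62.5%, beside 59.3% of the brighter class). None of the 8 was at an unadjusted p under 0.05. Mad2l1, the checkpoint protein that holds CDC20, was at 0.054, -0.0042 and 0.029 with empty vector and 0.0042, -0.031 and -0.025 with knockdown, a change of -0.043 ± 0.041 (SE). Ttk, the checkpoint kinase with CACGTG before its start, was at 0.072, 0.036 and -0.064 with empty vector and -0.036, -0.24 and 0.066 with knockdown. The knockdown arrays thus spread wider than the groups were apart, and the change of -0.084 ± 0.080 (SE) became 3e-04 without knockdown array 2. Bub1 and Bub1b, kinase and pseudokinase of the checkpoint, were at -0.024 ± 0.052 and 0.019 ± 0.043. Cdc20, the activator of the anaphase-promoting complex, had a change of -0.064 ± 0.060 (SE), and Ube2c, its ubiquitin-conjugating enzyme, 0.0061 ± 0.0517. The separase gene Espl1, which also has CACGTG before its start, was at 0.0058 ± 0.0510, and its inhibitor securin (Pttg1) at -0.028 ± 0.042.

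In the kinetochore group Ndc80, the microtubule-binding subunit of the outer kinetochore, separated the groups. It was at 0.049, 0.056 and 0.013 with empty vector and at -0.059, -0.062 and -0.013 with knockdown. Its change of -0.084 ± 0.041 (SE, unadjusted p = 0.0755, adjusted p = 0.996 in limma) depended little on knockdown array 2, at -0.075 without it. The 2 other subunits of the same complex in the set overlapped between the groups. Nuf2 had a change of -0.037 ± 0.050 and Spc25 of 0.043 ± 0.058 (SE). Spc25 was at 0.11 and 0.088 on knockdown arrays 1 and 3 but at -0.084 on array 2, while its empty vector arrays lay within -0.015 to 0.0046. Without knockdown array 2 its change was 0.10, the largest upward value in the set in that comparison. Cenpa, the histone variant that marks centromeres, was at -0.050 ± 0.044. The motor Cenpe and the large corona protein Cenpf were at -0.045 ± 0.058 and -0.031 ± 0.073, and Cenpf ranged from -0.14 to 0.16 among the empty vector arrays.

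Several spindle genes differed widely between the knockdown arrays. Kif4, a chromosome-bound kinesin, was at -0.0092, 0.0092 and 0.099 with empty vector and at -0.037, -0.25 and 0.027 with knockdown. The low value on knockdown array 2 carried most of its change of -0.12 ± 0.07 (SE, unadjusted p = 0.151 in limma), which was -0.038 without that array. Hmmr, a spindle-pole protein, was at 0.073, 0.0090 and -0.067 with empty vector and at -0.0090, -0.33 and 0.13 with knockdown, so its lowest and its highest array were both knockdown arrays. Its change was -0.072 ± 0.109 (SE), and 0.058 without knockdown array 2. Tpx2, the activator of Aurora A, was at 0.11, 0.013 and -0.013 with empty vector and -0.018, -0.15 and 0.060 with knockdown, a change of -0.073 ± 0.064, or -0.016 without knockdown array 2. Kif2c, a kinesin that takes microtubules apart, was at 0.016, 0.0036 and -0.0029 with empty vector and 0.0029, -0.13 and -0.036 with knockdown, a change of -0.060 ± 0.048, or -0.022 without that array. Kif11, the kinesin that pushes spindle poles apart, was at 0.023 ± 0.040.

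The 5 cytokinesis genes had changes on both sides of 0, with a median of -0.0036, or 0.017 without knockdown array 2. The motors Kif20a and Kif23 were at -0.0036 ± 0.0447 and -0.010 ± 0.050, the midzone bundler Prc1 at -0.031 ± 0.046, and Ect2, which activates RhoA at the cleavage furrow, at 0.0087 ± 0.0440. Anln, the ring scaffold anillin and the third gene with CACGTG, was at 0.068, -0.041 and -0.051 with empty vector and 0.033, -0.033 and 0.096 with knockdown, a change of 0.040 ± 0.054 (SE), next to Spc25 the highest of the 39. The 3 genes with CACGTG in their windows thus had changes of -0.084, 0.0058 and 0.040, with overlapping groups in each case.

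**Figure D2:**
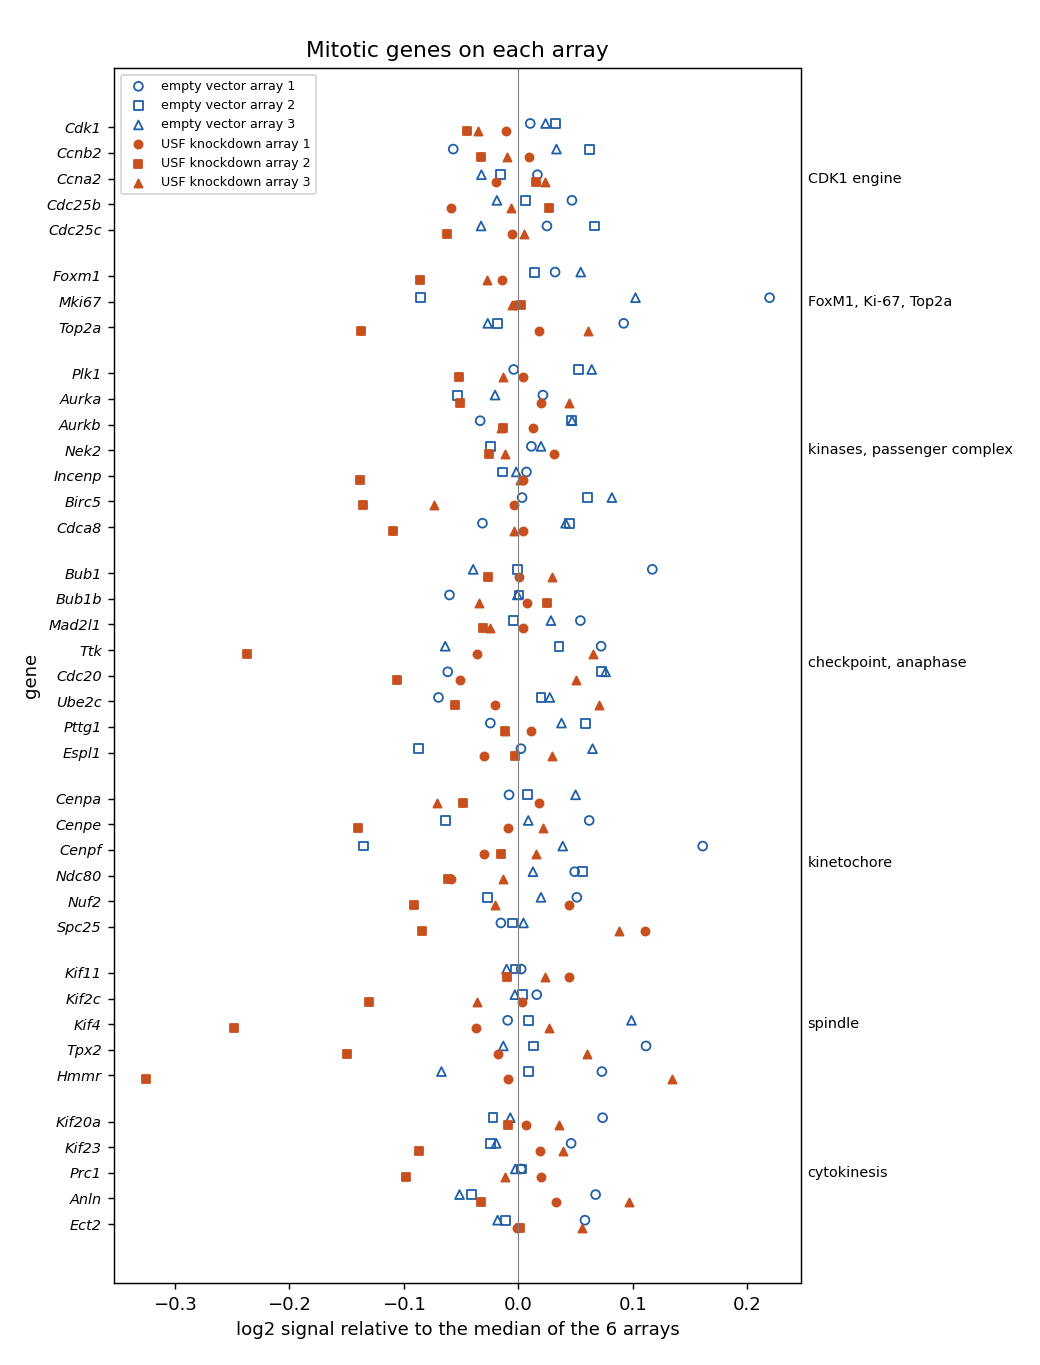
Relative log2 signal of the 39 measured mitotic genes on each of the 6 arrays, ordered by role, with open blue symbols for empty vector and filled orange symbols for knockdown. The filled square, knockdown array 2, is the lowest array for 22 of 39 genes and reaches -0.33 for Hmmr.

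Set against the empty vector mean of each gene, 35 of 39 genes were lower on knockdown array 2, 27 on array 1 and 21 on array 3. Of the 7320 genes of the brighter class, 4857 were lower on array 2, 3676 on array 1 and 3434 on array 3. The medians of the differences over the 39 genes were -0.012, -0.076 and -0.0064 on arrays 1, 2 and 3. In the brighter class they were -3e-04, -0.037 and 0.0046. Knockdown array 2 was the lowest of the 6 arrays for 22 of 39 genes and for 41.3% of the brighter class. The other arrays had shifts of their own. Empty vector array 1 was the highest array for 15 of the 39 genes, among them Mki67, Cenpf, Bub1 and Tpx2 (0.11 to 0.22), and the lowest for 5, among them Ccnb2, Bub1b and Ube2c (-0.070 to -0.057). The part of the wide spread of knockdown array 2 in these medians was not tested.

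Other genes of the cell cycle, in lists written by function, likewise had 0 genes passing in limma over all genes. Of 53 measured further G2/M genes of 56 listed, 47 had a change below 0 (88.7%), with a median of -0.037. That is beside 59.3% below 0 in the brighter class and 50.4% over all genes. The list's medians on knockdown arrays 1, 2 and 3 were -0.012, -0.12 and 0.0013. Without array 2, 31 of 53 lay below 0 (58.5%, beside 48.0% of the brighter class), with a median of -0.0096. At an unadjusted p under 0.05, 0 were higher and 1 was lower (1.89%, beside 2.65% of all genes and 3.52% of the brighter class). This was Ska1, part of a complex that couples kinetochores to microtubules (-0.14 ± 0.06, SE, dimmer class). Next came Cdca3, which helps to destroy the CDK1 inhibitor WEE1 (-0.10 ± 0.05). Condensin and cohesin genes (17 of 17 measured) had a median of -0.0061 with 11 below 0 (64.7%, beside 59.3% of the brighter class). Without knockdown array 2 the median was 0.023 with 4 below 0 (23.5%, beside 48.0% of the brighter class). The list was led by Ncaph2 (-0.085 ± 0.052) and Smc2 (0.050 ± 0.050, or 0.090 without knockdown array 2). Of the anaphase-promoting complex (15 of 15), 1 was lower at an unadjusted p under 0.05 (6.67%, beside 2.65% of all genes and 3.52% of the brighter class). This was Anapc13 (-0.15 ± 0.06), followed by Anapc4 (-0.10 ± 0.05). The median of the complex was -0.0026, or 0.0105 without knockdown array 2. Brakes on CDK1 and on the cell cycle (11 of 12) had 0 at an unadjusted p under 0.05. Their leading genes were the CDK inhibitor Cdkn1c (0.15 ± 0.07) and the cyclin Ccng2 (-0.12 ± 0.07), both in the dimmer class. Without knockdown array 2, where Ccng2 read -0.22, these changes were 0.0945 and -0.0465. G1/S and replication genes (34 of 35) counted 3 at an unadjusted p under 0.05, all lower (8.82% of the 34, beside 2.65% of all genes and 3.52% of the brighter class), and a median of -0.028, or -0.016 without knockdown array 2. The first were the clamp loader subunit Rfc2 (-0.20 ± 0.05, limma adjusted p = 0.972) and the replication helicase subunit Gins1 (-0.19 ± 0.06, 0.996). Of the 34 G1/S genes, 24 had a change below 0 (70.6%, beside 59.3% of the brighter class). Without knockdown array 2, 21 did (61.8%, beside 48.0%). Every knockdown array lay below every empty vector array for 7 of them (20.6%), beside 5.95% of all genes and 8.61% of the brighter class. The knockdown arrays lay above for 1 (2.94%), beside 4.33% and 5.46%.

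**Figure D3:**
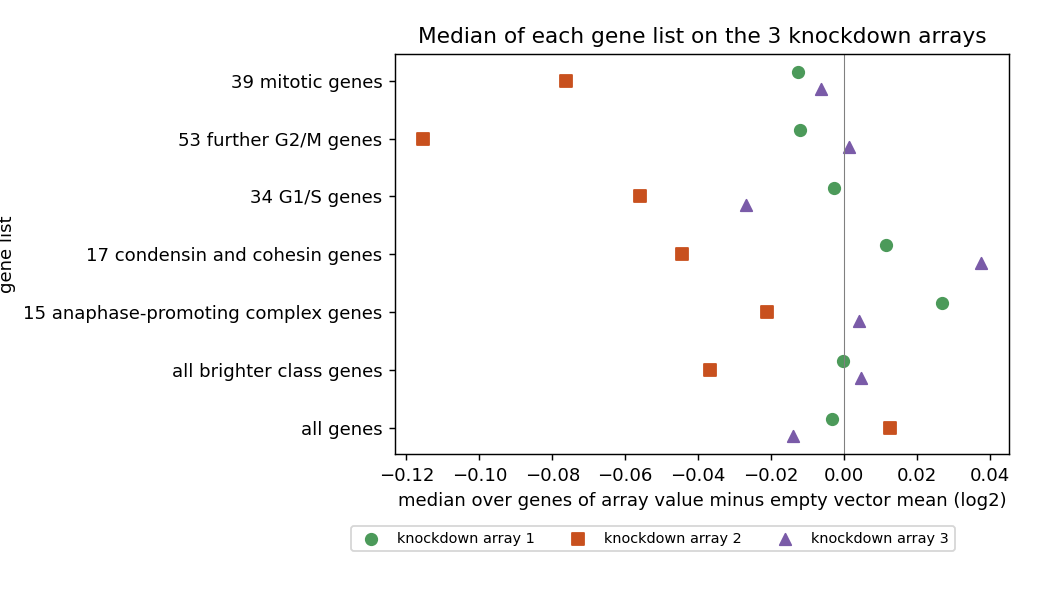
Median over the genes of each list of the value on a knockdown array minus the empty vector mean (log2), 1 point per knockdown array. Knockdown array 2 lies at -0.076 for the 39 mitotic genes and -0.12 for the further G2/M genes, beside -0.037 for the brighter class, while arrays 1 and 3 lie within 0.03 of 0 for both of these G2/M lists.

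Transcriptional regulators of the late cell cycle (21 of 21 measured) counted 3 genes at an unadjusted p under 0.05 (2 higher, 1 lower; 14.3% of the 21, beside 4.25% of all genes), with a median of -9e-04, or 0.013 without knockdown array 2. The groups did not overlap for 3 genes lower and 3 higher (14.3% each), beside 5.95% and 4.33% of all genes. The brighter class, which held 18 of the 21, had 8.61% below and 5.46% above. At an unadjusted p under 0.05 it had 3.52% lower and 1.46% higher. Nfya, the DNA-contacting subunit of the CCAAT-binding factor NF-Y, was at -0.029, -0.12 and -0.12 with empty vector and 0.067, 0.029 and 0.080 with knockdown. The groups did not overlap, and the change was 0.15 ± 0.05 (SE, unadjusted p = 0.0116, adjusted p = 0.996 in limma). The other two subunits, named after their values were seen, lay the opposite way. Nfyb had a change of -0.17 ± 0.08 and Nfyc of -0.12 ± 0.05 (SE, unadjusted p of 0.0568 and 0.0332, adjusted p of 0.996 in limma), with the knockdown arrays below the empty vector arrays for each. Nfyc, averaged over 2 clusters, was not in the brighter class. Lin52, a subunit of the DREAM complex, had a change of 0.13 ± 0.04 (SE, unadjusted p = 0.0158, adjusted p = 0.996 in limma). Its value was averaged over 2 clusters. Without knockdown array 2 the changes of Nfya, Nfyb, Nfyc and Lin52 were 0.16, -0.081, -0.12 and 0.11. None of these 4 passed over all genes in this fit. With array weights, a fit that rests almost on knockdown array 1 alone, the limma adjusted p of Nfya and Lin52 were 0.0147 and 0.0352.

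The label of the cells was checked by class only, since no level is known. Of 15 measured markers of sympathetic neuroblasts and neurons, 11 were in the brighter class, among them Phox2a, Hand2, Gata2 and Gata3. The 4 that were not were Th and Dbh, which encode enzymes of catecholamine synthesis, and the neurofilament genes Nefl and Nefm. The median change of the 15 was 6e-04. At an unadjusted p under 0.05 there were 2, both lower (13.3%, beside 2.65% of all genes and 3.52% of the brighter class). These were Dbh (-0.25 ± 0.05, SE, unadjusted p = 0.00142, adjusted p = 0.759 in limma) and Chgb (-0.15 ± 0.05, 0.0280 and 0.996), with groups that did not overlap in either case. Of the markers of fibroblasts (6 measured), macrophages and blood cells (5), endothelium (6) and glia (6), 1 was in the brighter class, the endothelial receptor gene Kdr, and 0 were at an unadjusted p under 0.05. The median changes of these 4 lists were 0.051, 0.060, 0.055 and 0.081, beside 0.011 for all 9263 genes outside the brighter class. On knockdown array 2 they lay 0.23, 0.074, 0.11 and 0.17 above the empty vector mean, beside 0.0835 for those 9263 genes. Without that array their median changes were -0.024, 0.044, 0.023 and 0.035. The part of these markers in the mitotic gene values was not tested.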

How the data were processed

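Per the labels' protocols, total RNA was amplified with an Ambion WT kit and end-labelled with an Affymetrix WT kit. The authors deposited 1 table of log2 values for 22891 transcript clusters on 6 arrays. The median of each cluster over the arrays is 0 (largest absolute median 5e-07). The log2 scale was read from the rounding of the numbers. No source used here gives the background correction, normalization or filters. The class of a cluster came from the same rounding (differences in whole steps, tolerance 0.05 of a step), with 9975 clusters brighter, 12900 dimmer and 16 unknown. A gene is brighter only if all its clusters are.

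Clusters with 1 symbol in the platform annotation (18087, against 1145 with several and 3659 unnamed) were used, and clusters of a gene were averaged. Through Entrez identifiers 18023 matched the RefSeq gene table of GRCm38.p6, with 0 symbols changed. Knockdown and empty vector were compared over all 16583 genes with lmFit and eBayes of limma 3.58.1 (R 4.3.3) and Benjamini-Hochberg adjustment, with a threshold of 0.05. The fit was tested on simulated data. Precision is limited by the number of arrays. Brighter genes had a median standard error of 0.0489, so a 1.08-fold difference reached an unadjusted p of 0.05.

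The members and lists were chosen with earlier results of these data known. All members are named by role, with values on every array for Cdk1 and the 8 smallest p. From each other list the 2 genes with the smallest p are named. Array values of other members, Nfyb, Nfyc and the marker genes named were picked after seeing them. Other normalizations, filters, variance models, a replicate block and leaving out each array were tried as alternatives. Promoter sequences are from RefSeq.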

Additional observations from a re-analysis of the deposited data

How the results depend on the processing

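Over 14 alternatives 0 of 39 mitotic genes passed, except with array weights, where 1 did (Spc25, 0.11, limma adjusted p = 0.0486). There the weight of knockdown array 1 was 33, against 0.136 and 0.441 for arrays 2 and 3, so the knockdown mean was in effect that of 1 array, and 1111 genes passed in all, among them Usf1 (0.000345), Usf2 (0.000635), Ska1 (0.0311), Ncaph2 (0.0413), Smc2 (0.0425), Rfc2 (0.0258), Nfya (0.0147) and Lin52 (0.0352, limma adjusted p). The estimation of these weights stopped before it converged. The count at an unadjusted p under 0.05 and lower was 0 with quantile normalization, 0 with the replicate block, 2 among brighter genes only, 2 with trend and robust variance, 3 with array weights and 0 to 1 without 1 array. The count higher was 1 with array weights and 0 to 1 without 1 array. The share of all genes at this p was not counted in these settings, so a larger count is not read as a stronger change of the mitotic genes. With array weights 1111 of all 16583 genes passed even after adjustment. Knockdown arrays lay above for 1 gene with arrays centred on the brighter genes and for 0 to 2 without 1 array, and below for 4 to 10 without 1 array (10 without empty vector array 1, where fewer arrays make separation easier). The share of all genes with separated groups was not counted in these settings, so these counts say nothing particular about the mitotic genes. The median change was -0.054 to -0.010 without 1 array (-0.010 without knockdown array 2), and -0.020 with quantile normalization, where the brighter class was at -8e-04 and 50.5% of it lay below 0. Correlations of same-numbered deviations were 0.0030, 0.082 and 0.036, beside -0.094 to 0.053 between arrays of different numbers. These values do not settle whether the replicate numbers pair the arrays. With the replicate block 0 genes passed in all.

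Of the 39 genes, 21 kept 1 sign in every setting, 17 of them lower. The sign turned with quantile normalization for Nek2 (0.0088), Kif20a (0.0030) and Kif23 (0.015), and with centring on brighter genes for Nek2 (0.0035) and Kif20a (0.0045). With array weights it turned for Ect2 (-8e-04), Prc1 (0.018), Kif23 (0.027), Kif20a (0.0028), Hmmr (0.0028), Nuf2 (0.033), Ube2c (-0.024), Incenp (0.0080), Nek2 (0.027), Top2a (0.017), Ccna2 (-0.0025) and Espl1 (-0.027). Over the fits without 1 array the change crossed 0 for Ccnb2 (-0.059 to 7e-04), Top2a (-0.076 to 0.024), Nek2 (-0.021 to 0.0072), Incenp (-0.065 to 0.0058), Bub1 (-0.057 to 0.022), Bub1b (-7e-04 to 0.036), Ttk (-0.15 to 3e-04), Ube2c (-0.030 to 0.033), Espl1 (-0.035 to 0.042), Cenpe (-0.078 to 0.0042), Cenpf (-0.11 to 0.038), Hmmr (-0.17 to 0.058), Kif20a (-0.022 to 0.026), Kif23 (-0.035 to 0.028), Prc1 (-0.056 to 0.0030) and Ect2 (-0.0098 to 0.033). The cause was not tested.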
